A study of Mus musculus with 4 samples.

Results

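Chemokines are small secreted proteins that direct the movement of cells, and their receptors are proteins of the cell surface that signal through inhibitory G proteins. The genes were chosen by symbol alone, as every gene in the deposited count table named Ccl, Cxcl, Ccr or Cxcr followed by a number, and this gave 49 of 55421 genes. They comprised 20 CC ligands, 13 CXC ligands, 10 CC receptors and 6 CXC receptors, and 1 symbol, Ccl19, was carried by 2 identifiers. The rule itself uses the symbols and no measured value, though it was written with earlier results of these data known.

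The name of a family refers to a pair of cysteines near the start of the mature ligand, which are adjacent in CC chemokines and separated by another residue in CXC chemokines. Many of these ligands are induced in fibroblasts, endothelial cells and macrophages by inflammatory signals acting through NF-kB or interferons, whereas others, such as CXCL12, are made constitutively and guide migrating or resident cells. CXCL12 and its receptor CXCR4 are known to guide primordial germ cells and to help keep spermatogonial stem cells in their niche.

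RNA was measured in primary cultures of spermatogonia (spermatogonial stem cell or SSC cultures) of the CD1 mouse strain, derived from the testes of young pups and grown in medium with N2 supplement, bFGF and GDNF. The cultures labelled Veh stayed in the complete medium, and those labelled NRRA received retinoic acid (RA) in a nutrient restriction medium that was mostly Earle's balanced salt solution, so that NRRA differed from Veh in both nutrients and RA and the parts of each cannot be told apart. All cultures stood on mouse embryonic fibroblast (MEF) feeder cells, which the study describes as irradiated and taken from CF1 mice, so that every library held RNA of germ cells and of feeders. There were 2 libraries per group and 4 in all, and the labels do not say which mice or cultures they came from, so that the p-values measure the spread between these libraries.

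Total counts ranged from 28022265 to 31604769 per library. A count of 3, used as the floor, was worth between 0.0921 and 0.111 CPM (counts scaled to 1000000 per library, with TMM-scaled library sizes), and intervals and floors cover counting error only. Stra8, a direct target of RA, had 9.62 and 10.1 CPM in Veh, against 1860 and 1850 CPM in NRRA, which checks the labels. Ddx4, a marker of germ cells, was at 273 and 268 CPM in Veh and 271 and 278 CPM in NRRA (log2 fold change 0.02, SE 0.0279, edgeR adjusted p 0.511). The counts of cell type markers stand beside 28.4% of all genes tested that were called lower and 27.9% called higher (edgeR adjusted p under 0.05), and the values in brackets are log2 fold changes. Of 10 germ cell markers 7 (70%) were lower and 2 (20%) higher, from Dazl (0.16) and Uchl1 (0.11) to Zbtb16 and Pou5f1 (-2.43 each), with sums of 2490 and 2580 CPM in Veh and 2020 and 2010 CPM in NRRA. Falls of at least 2-fold were called for 3, which the study names as genes of undifferentiated spermatogonia. Zbtb16 went from 441 and 443 CPM to 82.1 and 81.4 CPM, Gfra1 from 150 and 156 CPM to 60.6 and 56.8 CPM. Pou5f1 went from 92.1 and 103 CPM to 18.4 and 17.8 CPM. Of 14 feeder markers 11 (78.6%) were lower and 2 (14.3%) higher, and their summed level was 9780 and 9660 CPM in Veh and 7550 and 7380 CPM in NRRA. None of the feeder markers was at 0, and the outermost were Pdgfra (0.98) and Col3a1 (0.61) against Lum (-1.43) and S100a4 (-1.01). Macrophage markers summed to 51.2 and 55.7 CPM in Veh and 45.1 and 43.4 CPM in NRRA, with 3 of 8 tested markers (37.5%) lower, namely Mrc1 (-2.27), Fcer1g (-0.99) and Cd68 (-0.86), and 0 higher with edgeR, also at an unadjusted p under 0.05. Of these 12 markers none was at 0, and their highest counts in a library ranged from 6 (Itgam) and 12 (Ptprc) to 279 (Cd68), 403 (Lyz2) and 616 (Csf1r). Endothelial markers summed to 19.0 and 19.1 CPM in Veh and 8.20 and 8.10 CPM in NRRA, and 2 of their 5 tested members (40%), Pecam1 (-1.96) and Kdr (-1.46), were lower. Of 6 smooth muscle markers 5 (83.3%) were lower, from Myh11 (-0.88) and Tagln (-0.87) to Cnn1 (-0.66) and Acta2 (-0.46), with sums of 184 and 190 CPM in Veh and 114 and 125 CPM in NRRA. Sertoli markers summed to 43.3 and 47.7 CPM in Veh and 75.6 and 75.0 CPM in NRRA, and the rise of this sum lay in Clu. Of 5 tested Sertoli markers 1 (20%) was higher and 1 (20%) lower. Clu (2.82) went from 8.07 and 8.33 CPM to 58.9 and 57.2 CPM, and Sox9 (-1.59) from 27.1 and 29.4 CPM to 9.33 and 9.43 CPM. Fshr was at 0 counts throughout, and of the Leydig markers only Star was called (0.31). The part of any of these changes in the results below was not tested, and in whole cultures fewer cells of a type and less RNA per cell cannot be told apart.

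Of the 49 genes, 25 passed the filter on low counts and were tested, 17 did not pass it, and 7 had no count in any library. Among the 25, 4 were higher in NRRA, 13 were lower and 8 did not pass the threshold (quasi-likelihood F test of edgeR, with p adjusted over all 20232 genes tested and a threshold of 0.05). Over all genes tested, 27.9% were called higher and 28.4% lower, 56.4% together, against 16.0% and 52.0% of the tested chemokine and receptor genes, 68.0% together. At least 2-fold falls were called for 11 of the 25, or 44.0%, beside 7.02% of all genes tested, and at least 2-fold rises for 2, beside 6.29% of all genes tested. The median log2 fold change of the 25 was -0.85, and that of all genes tested was 0. The libraries of the groups did not overlap for 21 of the 25, and 76.7% of all genes tested had no overlap. These counts describe the genes that passed the filter, and Ccl20, Ccr7 and Ccr1 passed it through the libraries of 1 group alone.

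**Figure D1:**
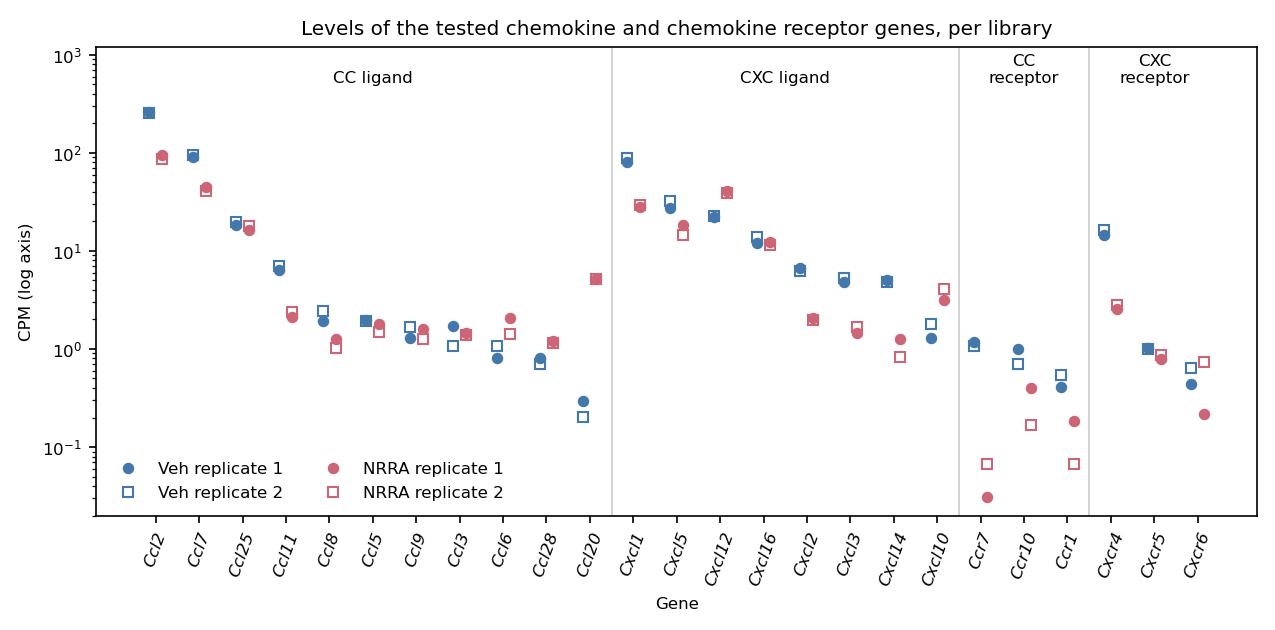
Level of each tested gene in each library, in CPM on a log axis, with genes ordered by class and by their Veh level. Circles are replicate 1 and squares replicate 2 of Veh (blue) and NRRA (red), and Ccl2 spans from 261 CPM in Veh to 86.6 CPM in NRRA while Ccl20 goes from 0.202 to 5.18 CPM.

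The summed level of all 49 genes was 567 and 584 CPM in Veh, against 286 and 271 CPM in NRRA. Ligands held 548 and 563 CPM of this in Veh and 281 and 265 CPM in NRRA, whereas all receptors together held 19.5 and 21.4 CPM in Veh and 4.70 and 5.61 CPM in NRRA. Ccl2, Ccl7 and Cxcl1 alone made up 76.5% and 75.2% of the summed level in Veh and 59.0% and 57.9% in NRRA.

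**Figure D2:**
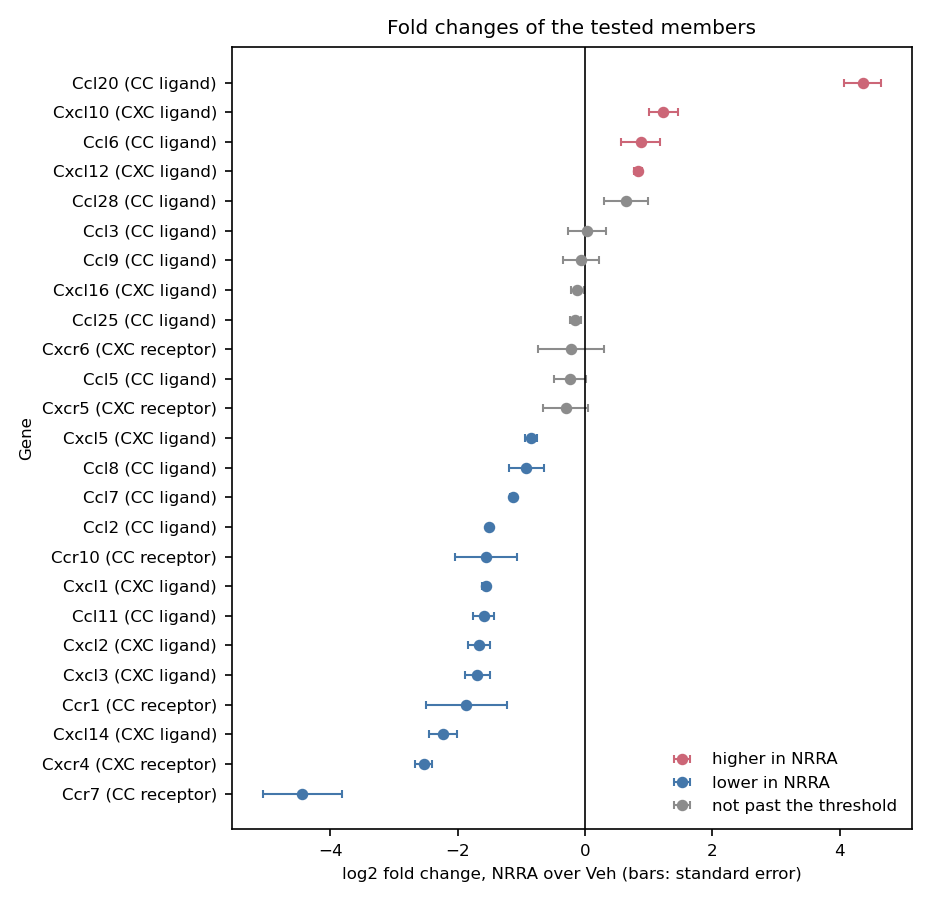
Log2 fold change of each of the 25 tested genes, NRRA over Veh, with its standard error as the bar, for genes called higher (red), lower (blue) or not past the threshold (grey). Of the 25 genes 13 lie in blue below 0 and 4 in red above it, and the outermost points, Ccl20 and Ccr7, passed the filter through 1 group alone, with NRRA counts of Ccr7 under the floor.

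The monocyte chemoattractant genes Ccl2 and Ccl7 had the highest levels per exonic length of all tested chemokine genes and fell. Ccl2 encodes MCP-1, which recruits monocytes through CCR2 (ENSMUSG00000035385, GRCm38 chromosome 11, 82035571 to 82037453, plus strand). It was at 261 and 256 CPM in Veh, against 95.6 and 86.6 CPM in NRRA. Both NRRA libraries lay far below both Veh libraries, 2.83-fold on average (log2 fold change -1.5, SE 0.0371, edgeR adjusted p 8.45e-22). Ccl7, which encodes the related MCP-3 and lies next to Ccl2 (ENSMUSG00000035373, chromosome 11, 82045712 to 82047525), had 91.6 and 96.1 CPM in Veh and 45 and 40.4 CPM in NRRA. It fell 2.19-fold (log2 fold change -1.13, SE 0.0508, edgeR adjusted p 2.76e-16). Ccl11, or eotaxin, attracts eosinophils through CCR3 and went from 6.45 and 6.99 CPM to 2.12 and 2.36 CPM. Its fall was 3.01-fold, without overlap of the groups (log2 fold change -1.59, SE 0.168, edgeR adjusted p 7.63e-09).

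Ccl8, which encodes MCP-2, was lower as well but rests on few counts. Its libraries held 52 and 72 counts in Veh against 41 and 31 in NRRA (log2 fold change -0.92, SE 0.271, edgeR adjusted p 0.00525), and the call was lost with DESeq2 (adjusted p 0.0857) and without Veh replicate 2 (edgeR adjusted p 0.0691). Ccl12, the mouse MCP-5, had 6 counts in each Veh library, against 0 and 1 in NRRA, too few to pass the filter. In the fit without a filter it was tested and not called. The ratio of its levels was 13.2 with a 95% counting interval from 1.96 to 565. No exonic base of Ccl2, Ccl7, Ccl8 or Ccl11 overlaps another gene in GENCODE release M21, and their longest transcripts have no near-identical stretch in another gene.

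Among ligands that attract neutrophils through CXCR2, Cxcl1, Cxcl2, Cxcl3 and Cxcl5 fell, while Ppbp, another such ligand whose symbol follows a different pattern, was not called (log2 fold change -0.25, SE 0.321, edgeR adjusted p 0.531). These genes lie on chromosome 5 within 90759360 to 90905938 (GRCm38). Cxcl1, also known as KC, had 81.3 and 87.8 CPM in Veh and 28.1 and 29.5 CPM in NRRA (ENSMUSG00000029380). The libraries of each group stood close together and the groups 2.94-fold apart (log2 fold change -1.56, SE 0.0542, edgeR adjusted p 1.24e-18). Cxcl2, or MIP-2, had 6.67 and 6.18 CPM in Veh and 2.06 and 1.99 CPM in NRRA (log2 fold change -1.66, SE 0.173, edgeR adjusted p 5.59e-09). Cxcl3 had 4.83 and 5.34 CPM in Veh and 1.47 and 1.69 CPM in NRRA (log2 fold change -1.69, SE 0.197, edgeR adjusted p 4.50e-08). The 3 fitted falls differed by less than the SE of Cxcl2 or of Cxcl3. Cxcl5, which encodes the chemokine known as LIX, stood at 27.4 and 31.9 CPM in Veh and 18.4 and 14.6 CPM in NRRA, a smaller fall of 1.80-fold (log2 fold change -0.85, SE 0.0914, edgeR adjusted p 1.14e-08). Differences between these genes in the size of the fall were not tested. Of the longest transcript of Cxcl5 6.49% is near-identical to Dock3 or Mlh3, of that of Cxcl2 5.61% is near-identical to Cxcl3, and 3.32% of that of Cxcl3 to Cxcl2, and how reads of those stretches were counted is not given in the sources used here.

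Promoter sequence of the RefSeq table (build GRCm38.p6, 250 bases before to 50 after each start site) was at hand for 33 of the 48 symbols, 16 of them tested. The tested genes with no entry were Ccl2, Ccl5, Ccl7, Ccl11, Ccr7, Ccr10, Cxcl5, Cxcl16 and Cxcr5. Letters of the NF-kB type (GGG, then any 2 bases, then TTTCC, on either strand) were found in the windows of 6 genes, namely Cxcl1, Cxcl2, Cxcl3, Ccl20, Ccl9 and Ccr3, and in 1.63% of 32851 windows of all genes. The stretches from 150 to 31 bases before the start site are shown for Cxcl1, Cxcl2 and Cxcl3, which fell together, and for Ccl20, which rose, 5′ to 3′ on the strand of the gene, with the matched letters in capitals. They lie at chr5:90891095-90891214, chr5:90903749-90903868 and chr5:90785951-90786070 for the ligands that fell and at chr1:83116616-83116735 for Ccl20, all on the plus strand.
Cxcl1: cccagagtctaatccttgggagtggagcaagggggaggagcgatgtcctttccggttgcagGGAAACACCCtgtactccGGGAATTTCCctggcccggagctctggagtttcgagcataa
Cxcl2: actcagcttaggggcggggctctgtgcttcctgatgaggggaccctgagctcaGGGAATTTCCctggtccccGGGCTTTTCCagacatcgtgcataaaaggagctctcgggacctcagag
Cxcl3: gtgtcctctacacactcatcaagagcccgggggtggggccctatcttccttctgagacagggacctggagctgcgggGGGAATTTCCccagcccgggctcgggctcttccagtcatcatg
Ccl20: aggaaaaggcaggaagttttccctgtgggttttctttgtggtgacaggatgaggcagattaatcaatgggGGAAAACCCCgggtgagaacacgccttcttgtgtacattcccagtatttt

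Cxcl1, Cxcl2 and Cxcl3 shared the same 10 letters, GGGAATTTCC, starting 71, 97 and 73 bases before the start site, and Cxcl1 and Cxcl2 each held another match. In Ccl20 the match read GGAAAACCCC, on the opposite strand to the gene, 80 bases before the start. Genes that fell and a gene that rose thus both carried such letters, as did Ccl9, for which no difference was called. A match of letters is a description and not a binding site. Letters of the interferon response type (GAAA, any 2 bases and GAAA again, on either strand) were found in the windows of Cxcl10, Cxcl14 and Ccl19 and in 3.44% of all windows. The letters TATAAA, on either strand, were in the windows of 9 genes and in 13.6% of all windows. A direct repeat of the RA response type (AGNTCA given again after any 5 bases, on either strand) was found in 0 of the 35 windows of these genes and in 0.204% of all windows.

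Cxcl14, which encodes a chemokine of epithelia and fibroblasts, had the steepest fall among the tested ligands. Its libraries were at 5.01 and 4.87 CPM in Veh and at 1.26 and 0.83 CPM in NRRA, 4.69-fold lower (ENSMUSG00000021508, log2 fold change -2.23, SE 0.223, edgeR adjusted p 2.84e-09).

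The ligands that rose were Ccl20, Cxcl10, Cxcl12 and Ccl6. Ccl20, the ligand of CCR6 (ENSMUSG00000026166, GRCm38 chromosome 1, 83116766 to 83119167, plus strand), had 8 and 6 counts in Veh against 167 and 156 in NRRA. In CPM these were 0.295 and 0.202 against 5.13 and 5.18. The rise was 20.6-fold (log2 fold change 4.36, SE 0.291, edgeR adjusted p 1.02e-12). Its exons overlap no other gene and its longest transcript has no near-identical stretch elsewhere.

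Cxcl12 (ENSMUSG00000061353, chromosome 6, 117168535 to 117181367, plus strand) rose from 22.1 and 22.6 CPM in Veh to 40.4 and 39.0 CPM in NRRA. The libraries within a group differed little, and the rise was 1.78-fold (log2 fold change 0.83, SE 0.0646, edgeR adjusted p 2.35e-11). Of the 14 feeder markers, Pdgfra (log2 fold change 0.98) and Col3a1 (0.61) rose as well, whereas 11 were lower. The sum of the feeder markers fell, and Fn1 alone held 6140 and 6090 CPM of it in Veh and 4360 and 4350 CPM in NRRA. The part of the feeders in the rise of Cxcl12 was not tested.

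Cxcl10, a ligand of CXCR3 that interferons induce (ENSMUSG00000034855, chromosome 5, 92346638 to 92348889, minus strand), had 35 and 53 counts in Veh against 104 and 123 in NRRA. The Veh libraries stood at 1.29 and 1.78 CPM and the NRRA libraries at 3.19 and 4.09 CPM, 2.35-fold higher (log2 fold change 1.23, SE 0.227, edgeR adjusted p 4.50e-05). Exons of Art3, which runs the other way, cover 5.91% of its exonic bases. The stretch from 230 to 31 bases before its start site is shown because it holds the interferon response type letters, in capitals, starting 213 bases before the start (chr5:92348920-92349119, minus strand, 5′ to 3′ on that strand).
Cxcl10: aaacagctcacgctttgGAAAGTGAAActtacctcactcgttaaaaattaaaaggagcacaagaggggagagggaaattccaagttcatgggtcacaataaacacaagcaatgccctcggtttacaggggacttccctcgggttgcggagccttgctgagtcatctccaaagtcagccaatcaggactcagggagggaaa

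The other CXCR3 ligands were too low to test. Cxcl9 had 1 and 0 counts in Veh against 3 and 4 in NRRA, and Cxcl11 had 7 and 0 in Veh and 8 and 14 in NRRA. Cxcl11 is annotated as a polymorphic pseudogene in GRCm38, and 41.7% of its exonic bases overlap another gene on the opposite strand. Ccl6, a chemokine of macrophages and other myeloid cells, had 22 and 32 counts in Veh against 67 and 43 in NRRA (log2 fold change 0.88, SE 0.306, edgeR adjusted p 0.0161). Its call was lost with DESeq2 (adjusted p 0.153), without Veh replicate 1 (edgeR adjusted p 0.0999) and without NRRA replicate 1 (edgeR adjusted p 0.239).

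Several ligands showed no called difference. Ccl25, a ligand of CCR9 known from thymus and gut, had 18.3 and 19.6 CPM in Veh and 16.3 and 17.9 CPM in NRRA (log2 fold change -0.15, SE 0.0844, edgeR adjusted p 0.137). Cxcl16, a membrane-bound chemokine that binds CXCR6, had 11.9 and 13.9 CPM in Veh and 12.2 and 11.6 CPM in NRRA (-0.12, SE 0.103, edgeR adjusted p 0.331). Zmynd15 overlaps 18.3% of the exonic bases of Cxcl16 on the opposite strand, and since the strand setting of the counting is not given in the sources used here, its level is uncertain by an amount that was not tested. Among the remaining CC ligands, Ccl3 (0.03, SE 0.295, edgeR adjusted p 0.952), Ccl5 (-0.24, SE 0.252, edgeR adjusted p 0.451) and the myeloid chemokine Ccl9 (-0.06, SE 0.283, edgeR adjusted p 0.885) had between 32 and 59 counts per library. With so few counts their SEs are wide, and a moderate difference could have been missed. Ccl28, a mucosal ligand of CCR10, had 22 and 21 counts in Veh against 39 and 35 in NRRA (0.64, SE 0.345, edgeR adjusted p 0.12), with no overlap of the groups.

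**Figure D3:**
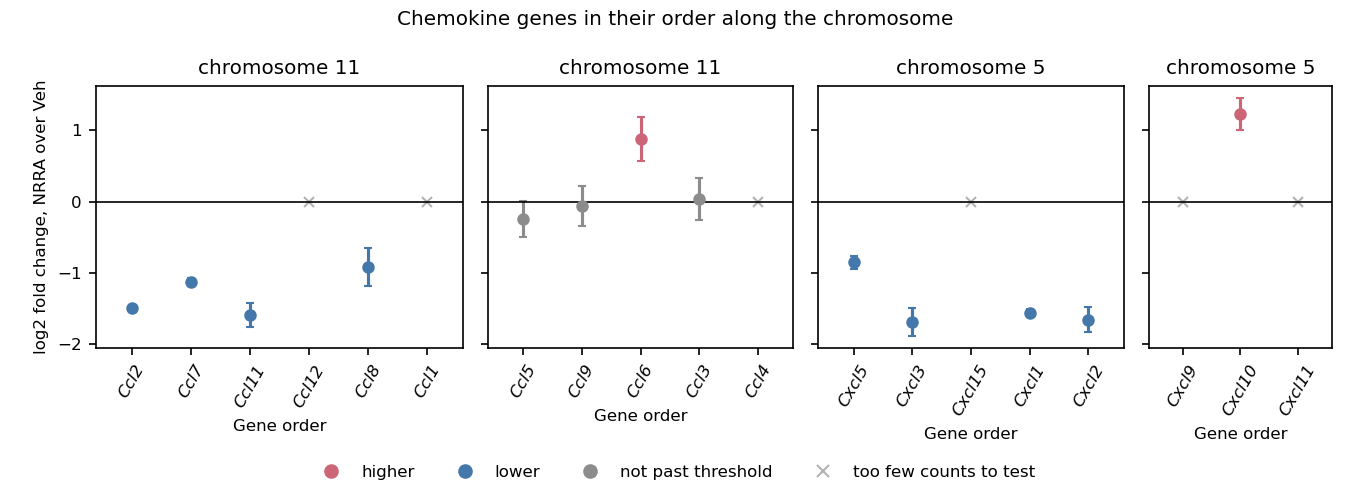
Log2 fold change, NRRA over Veh, of chemokine genes in their order along chromosome 11 (left 2 panels) and chromosome 5 (right 2 panels), with the standard error as the bar. The 4 tested genes from Ccl2 to Ccl8 and the 4 tested Cxcl genes from Cxcl5 to Cxcl2 all lie below 0 (Ppbp and Pf4, not called, are not drawn), Ccl6 and Cxcl10 lie above it, and crosses mark genes with too few counts to test.

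Many of these genes lie side by side in the genome, and the calls are given here by group of neighbours, beside 28.4% lower and 27.9% higher of all genes tested. Between 82035571 and 82305690 on chromosome 11 (GRCm38), 4 of 6 genes were tested, and all 4 of these (Ccl2, Ccl7, Ccl8 and Ccl11) were lower, with a median log2 fold change of -1.32. Farther along the same chromosome, between 83525778 and 83664683, Ccl3, Ccl5, Ccl6 and Ccl9 were tested. Of these 1 was higher, 0 were lower and 3 were not called, with a median of -0.02. On chromosome 5, the 4 tested Cxcl genes from 90759360 to 90905938 were lower, with a median of -1.61, and the other tested chemokine genes there, Ppbp and Pf4, were not called. Cxcl10, the only gene tested of the 3 between 92321347 and 92365485, was higher. The groups were formed from gaps of at most 1000000 bases, and the difference between them was not tested.

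The Ccr and Cxcr genes summed to far less than the ligands, and Cxcr4 was the only one of them above 2 CPM in any library. Cxcr4 (ENSMUSG00000045382, GRCm38 chromosome 1, 128588199 to 128592293, minus strand) had 391 and 488 counts in Veh against 83 and 84 in NRRA. These were 14.4 and 16.4 CPM in Veh and 2.55 and 2.79 CPM in NRRA, a fall of 5.78-fold without overlap (log2 fold change -2.53, SE 0.134, edgeR adjusted p 9.42e-15). Its ligand Cxcl12 moved the other way, as given above. The scavenging receptor of CXCL12, Ackr3, was at 13.9 and 13.6 CPM in Veh and 13.9 and 13.4 CPM in NRRA (log2 fold change -0.01, SE 0.0939, edgeR adjusted p 0.95).

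Ccr7, the receptor that brings dendritic cells and lymphocytes to lymph nodes, had 32 counts in each Veh library, against 1 and 2 in NRRA. Both NRRA libraries were thus at or under the floor, and the ratio of Veh to NRRA was 23.5 with a 95% counting interval from 7.69 to 117 (edgeR adjusted p 9.04e-07). Ccr10, which binds CCL27 and CCL28, had 27 and 21 counts in Veh against 13 and 5 in NRRA (log2 fold change -1.55, SE 0.488, edgeR adjusted p 0.0085). Ccr1, which binds CCL3 and CCL5, had 11 and 16 counts in Veh against 6 and 2 in NRRA (-1.86, SE 0.641, edgeR adjusted p 0.0155). The calls of Ccr10 and Ccr1 did not last with DESeq2 (adjusted p 0.102 and 0.163), without Veh replicate 1 (edgeR adjusted p 0.112 and 0.0502) or without NRRA replicate 2 (edgeR adjusted p 0.126 and 0.193), and that of Ccr1 was also lost without Veh replicate 2 (edgeR adjusted p 0.178). Without NRRA replicate 1 their log2 fold changes were larger, -2.32 for Ccr10 and -2.75 for Ccr1. Apart from them, Cxcr4 and Ccr7 were the Ccr and Cxcr genes called lower.

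Cxcr5 (-0.30, SE 0.351, edgeR adjusted p 0.501) and Cxcr6 (-0.22, SE 0.518, edgeR adjusted p 0.747) were tested without a call, at 26 to 30 and 7 to 22 counts per library. Of the 6 tested Ccr and Cxcr genes 0 were called higher and 4 (66.7%) lower, beside 27.9% and 28.4% of all genes tested. With all 4 libraries the fitted log2 fold changes of the 6 lay below 0 with edgeR and with DESeq2. That of Cxcr6, not called, turned above 0 without Veh replicate 2 (0.07) or NRRA replicate 1 (0.43). Ccr2, Ccr6, Ccr8 and Cxcr3 had 0 counts in every library, which allows up to 3 counts per library. Also under the filter were Cxcr2 (11 and 9 counts in Veh, 4 and 6 in NRRA), Ccr9 (at most 10 in a library), Ccr4 (at most 8), Cxcr1 (at most 4) and Ccr3 (at most 3, and 0 in both NRRA libraries).

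**Figure D4:**
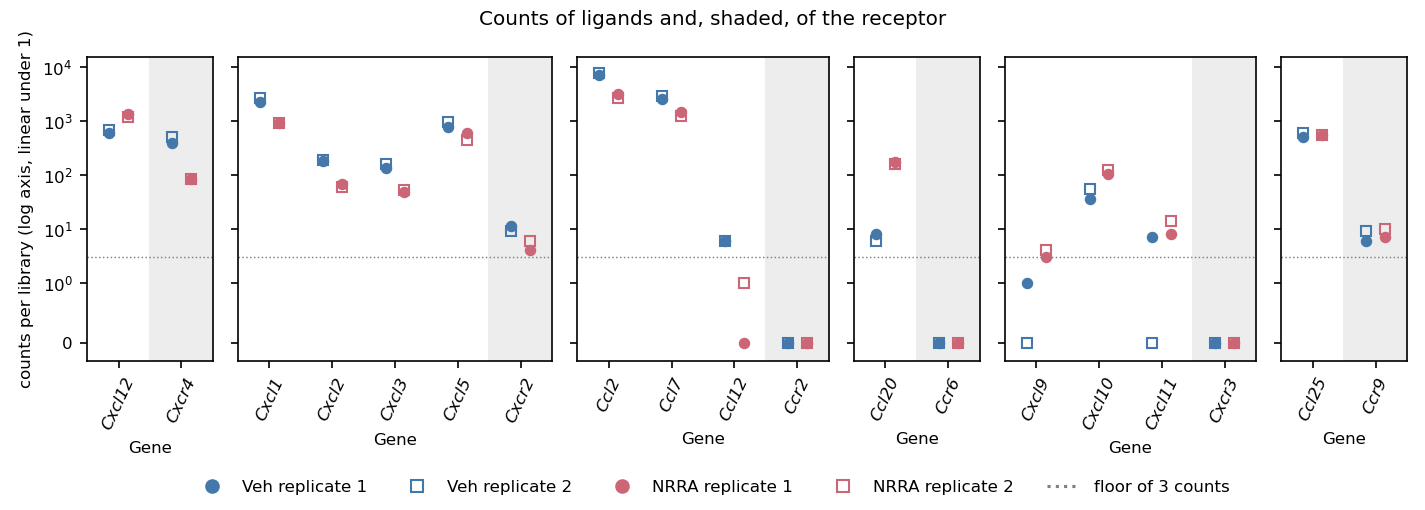
Counts per library of chosen ligands and, in the shaded column of each panel, of a receptor that binds them, on a log axis that is linear under 1, with a dotted line at the floor of 3 counts. Colours and symbols are those of the plot of levels by library, and Ccr2, Ccr6 and Cxcr3 lie at 0 in all 4 libraries while Ccl2 reaches 7610 counts.

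The ligands were set beside receptors that bind them. Ccl2 and Ccl7, with up to 7610 and 2860 counts in a library, bind CCR2, whose gene had 0 counts, and Ccl7 also binds CCR1, whose gene had up to 16. Ccl20 rose to 167 counts where Ccr6 had 0, and Cxcl10 rose to 123 where Cxcr3 had 0. Cxcl1, Cxcl2, Cxcl3 and Cxcl5 bind CXCR2, whose gene had at most 11 counts, Cxcl5 also binds CXCR1, at 4 or fewer, and Ccl25 with up to 584 counts binds CCR9, at 10 or fewer. Among the Ccr and Cxcr genes, Cxcr4 with Cxcl12 was the only pairing in which both exceeded 50 counts in every library, the scavenging receptors Ackr3 and Ackr4 being left out of that list. The scavenger Ackr4, which binds CCL25, was at 13.0 and 12.7 CPM in Veh and 12.2 and 13.6 CPM in NRRA (log2 fold change 0, SE 0.0994, edgeR adjusted p 0.979).

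The order of levels per exonic length changed between the groups. In CPM per kilobase of exonic sequence, Ccl2 (227 in Veh and 80.1 in NRRA), Ccl7 (117 and 53.3), Cxcl1 (45.1 and 15.4) and Cxcl5 (15.9 and 8.86) held places 1 to 4 of the 25 tested genes in both. Cxcr4 moved from place 5 in Veh (8.52) to place 14 in NRRA (1.48). Cxcl12 moved from place 10 (2.73) to place 5 (4.86), and Ccl20 from place 23 (0.175) to place 7 (3.62). Genes of neighbouring places often differed by less than their replicate spread, as Cxcl16 (4.27) and Ccl8 (4.25) in Veh. These levels use the exons of all annotated transcripts and depend on that annotation.

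The remaining ligands were under the filter. Ccl4, Ccl17 and Cxcl17 had at most 8, 10 and 3 counts in a library, and Ccl1 and Ccl22 at most 3 and 4, the latter with 0 in both NRRA libraries. Ccl24, Ccl26 and Cxcl15 had at most 2, 1 and 1. Cxcl13 and both entries of Ccl19 had 0 counts throughout.

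Related genes whose symbols follow another pattern were read from lists of the pathway. Of the other chemokines, the fractalkine gene Cx3cl1 was lower, at 14.7 and 16.6 CPM in Veh and 11.5 CPM in both NRRA libraries (log2 fold change -0.45, SE 0.0975, edgeR adjusted p 0.000301). Ppbp, given above, the platelet chemokine gene Pf4 (-0.74, SE 0.548, edgeR adjusted p 0.262) and Ccl27a, which encodes a ligand of CCR10 (0.44, SE 0.295, edgeR adjusted p 0.214), were not called. Of the other receptors, the scavenger of inflammatory CC chemokines Ackr2 was lower, with 13 and 22 counts in Veh against 5 and 8 in NRRA (-1.54, SE 0.548, edgeR adjusted p 0.0186). It was the only 1 called of the 4 tested genes of that list (25%), beside 28.4% of all genes tested called lower. Gpr182, on the same list, had 15 and 18 counts in Veh against 46 and 21 in NRRA. Its rise was not called (0.87, SE 0.41, edgeR adjusted p 0.0743).

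Downstream of the receptors, 9 of 27 tested genes (33.3%) were higher and 11 (40.7%) lower, beside 27.9% and 28.4% of all genes tested. The largest changes were those of the phospholipase gene Plcb2 (-1.88) and the receptor kinase gene Grk3 (-1.06), and of Elmo1 and Dock2 (0.91 each), whose proteins together activate Rac. Dock2 rests on few counts, 16 and 22 in Veh against 51 and 28 in NRRA (SE 0.369, edgeR adjusted p 0.039). Among 6 proteases that cut or release chemokines 3 were lower, with Mmp9 at -1.81, Mmp14 at -1.07 and Mmp2 at -0.32, and 0 were higher with edgeR, beside the same shares of all genes. At an unadjusted p under 0.05 the count of higher ones was also 0. Dpp4, whose protein trims chemokines, lay just outside that limit (log2 fold change 1.15, edgeR unadjusted p 0.0516, adjusted p 0.0858), without overlap of the groups.

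Of 20 tested genes of NF-kB signalling and inflammatory cytokines 10 (50%) were lower and 4 (20%) higher, beside 28.4% and 27.9% of all genes tested. The cytokine genes Il6 (5.97 and 6.02 CPM in Veh, 1.54 and 1.33 CPM in NRRA, log2 fold change -2.06) and Il1b (-1.28) fell most, and the NF-kB inhibitor Tnfaip3 (10.1 and 9.34 CPM in Veh, 19.4 and 20.3 CPM in NRRA, 1.03) and Rel (0.59) rose most. Of 12 tested genes of interferon signalling 5 (41.7%) were higher and 4 (33.3%) lower, from Irf7 (0.85) and Ifngr1 (0.74) to Irf3 (-0.42) and Irf1 (-1.13). Ifng and Ifnb1 had 0 counts in every library. The medians of these lists were -0.22 and 0.18, beside 0 for all genes tested.

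**Figure D5:**
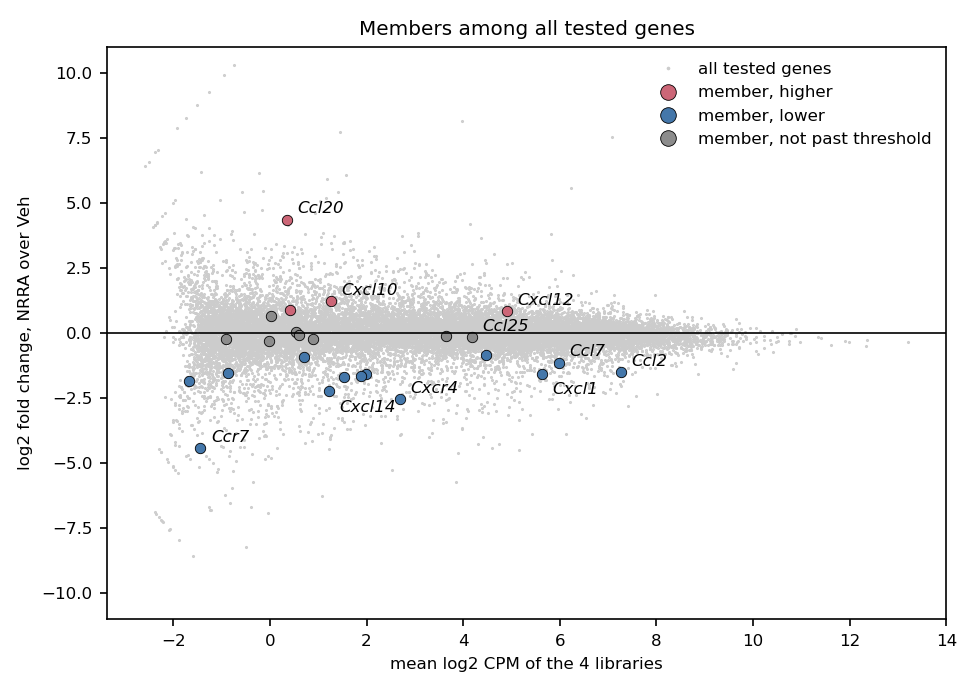
Log2 fold change, NRRA over Veh, against the mean log2 CPM of the 4 libraries for all 20232 genes tested (grey) and the 25 chemokine and receptor genes (coloured by call, 10 of them named). Ccl2 is the most abundant of them and lies at -1.5, while Ccl20 and Ccr7, each with few counts in 1 group, lie at low mean levels.

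In the plot of all genes, Ccl2, Ccl7 and Cxcl1 stand at the highest mean levels of the 13 chemokine and receptor genes that fell. Counted from the largest fall, Cxcr4 held place 277 and Cxcl14 place 401 of the 20232 genes tested, and Ccl2 place 807.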

How the data were processed

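The authors deposited raw counts per gene for the 4 libraries. The submitters' processing notes list STAR 2.6.1c, featureCounts 1.6.4 and build mm10, and the strand setting is not given in the sources used here. The study's methods describe stranded, oligo-dT selected, paired-end reads, while the labels name another kit. Columns were matched to samples by their descriptions.

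Counts were tested with edgeR 4.0.16 in R 4.3.3 (filterByExpr, TMM, robust quasi-likelihood F test, Benjamini-Hochberg over all genes tested, threshold 0.05), after the code was tested on simulated data. SEs were derived from the F statistic. DESeq2 1.42.0, other scalings and filters, a replicate block and leaving out each library were alternatives. Every member that passed the filter is named, 1 that did not pass is not reported here by name, and of other lists the 2 largest and 2 smallest called changes. Members and lists were chosen with earlier results of these data known. Coordinates come from GENCODE M21 (GRCm38), in which 48 of 49 member identifiers were found. Near-identical means at least 95% identity over 100 bases (BLAST). Replicates differed by more than sampling noise (chi-square per degree of freedom 2.45 and 1.99). The spread between replicates beyond that noise was small, with a common coefficient of variation of 2.61% in edgeR, and the small p-values rest on it.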

Additional observations from a re-analysis of the deposited data

How the results depend on the processing

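Under the 11 alternatives, between 3 and 4 of these genes were called higher and between 10 and 13 lower, and 0 were called in the opposite direction. All 17 calls were kept with RLE size factors, library size only, no filter, no robust estimation and the replicate block (4 higher and 13 lower with the block), and 13 with DESeq2, which lost Ccl6 (0.89), Ccl8 (-0.92), Ccr1 (-1.9) and Ccr10 (-1.58). The filter of 1 CPM in 2 libraries left Ccr1 and Ccr10 untested. Leaving out a library kept between 14 and 16 calls, and Cxcl11 was gained without Veh replicate 1. Values that changed sign were uncalled ones. Ccl9 did so with library size only (0.03) and, when a library was left out, ranged from -0.23 to 0.15 (0.10 without NRRA replicate 2). Ccl3 ranged from -0.29 to 0.40, being below 0 without Veh replicate 2, and Cxcr6 from -1.32 to 0.43, being above 0 without Veh replicate 2 (0.07) or NRRA replicate 1. The cause was not tested. Where a group was left with 1 library, that library was assumed to vary like the other group. With library size only, the share of all calls that were higher rose from 49.6% to 60.3%. Whether the libraries were paired is not given by the labels, and Veh replicates 1 and 2 carry the numbers 2 and 3 in their descriptions. The correlation of deviations between libraries of the same replicate number was -0.0106. With 2 libraries per group it cannot decide whether they were paired. At these depths 17 of the genes had counts but too few to pass the filter.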
